A study of Mus musculus with 48 samples.

Results

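The comparison asked whether liver RNA differed by paternal diet to the same extent in wild-type mice and in mice labelled ATF7+/-. It took the diet difference in wild-type livers (fathers on a low-protein diet minus fathers on a control diet) and subtracted the same difference in ATF7+/- livers. A positive value therefore means that the level rose more, or fell less, with the paternal low-protein diet in wild-type than in ATF7+/- offspring. The members were chosen by the sample titles alone: 31 samples (from 32 arrays) in 4 groups, out of 46 samples (48 arrays) in 6 groups in the whole series.

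The series measured RNA in livers of first-generation mouse offspring on Affymetrix gene arrays, with 8 arrays in each group. All animals were male or female offspring aged 3 weeks, and the tissue was the median lobe of the liver. Their fathers had been given either the control diet or one low in protein between 3 and 12 weeks of age. The groups compared were wild-type with paternal control diet (wild-type pCD), wild-type with paternal low-protein diet (wild-type pLPD), ATF7+/- pCD and ATF7+/- pLPD. The remaining pair of groups, ATF7+/+ pCD and ATF7+/+ pLPD, did not enter the difference and is used here as a further reference. The labels do not say how the wild-type and ATF7+/+ animals differ in origin, which genotype the fathers had, or which sex each animal was. The series' design counts the 8 arrays of a group as biologically independent. The p-values therefore rest on the spread among these samples alone. The labels used here name no father or litter, so whether samples of a group shared one could not be taken into account.

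ATF7 belongs to the CREB/ATF family of transcription factors, responds to stress signals, binds CRE-type DNA sites, and is known to recruit enzymes that methylate histone H3 on lysine K9, a mark of silenced chromatin. The liver makes much of the body's cholesterol and fatty acids. Transcription of the enzymes of both pathways is driven by SREBP proteins, which are carried by SCAP from the endoplasmic reticulum to the Golgi when sterols are low, are cleaved there, and bind sterol regulatory elements in promoters together with cofactors such as the CCAAT-binding factor NF-Y.

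Several properties of the arrays bear on the values. Among 78 pairs of arrays from the same group and array set, 2 pairs were nearly identical: wild-type pCD replicates 4 and 5, and ATF7+/+ pCD replicates 7 and 8. Each pair was averaged and counted as 1 sample, which left 7 wild-type pCD samples and 8 in each of the other 3 groups. The arrays fell into a pair of sets by probe sets that carry no listed gene name, and each group held 3 arrays of set A and 5 of set B, so that each result could also be computed within a set. Genes of the Y chromosome were high in 5 of 8 arrays in each of the 4 groups compared, 2 of them in set A. In each ATF7+/+ group they were high in 6 of 8 arrays, with all 3 arrays of set A among them. The averaged wild-type pCD replicates 4 and 5 were both low, so that 5 of the 7 samples of that group were high. All 13 measured hepatocyte markers lay above the filter on low values, with a median log2 level of 13.0. Their levels were also summed off the log scale, so that the brightest markers weigh most. The log2 of that sum spanned 16.6 to 16.7 in wild-type pCD and 16.5 to 16.7 in wild-type pLPD. In both ATF7+/- groups it spanned 16.6 to 16.7.

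Atf7 itself was measured by 2 probe sets. On the second, the log2 level had a low, median and high of 8.32, 8.62 and 8.70 in wild-type pCD, 7.84, 8.33 and 8.63 in wild-type pLPD, 7.19, 7.79 and 8.0 in ATF7+/- pCD, and 6.98, 7.89 and 8.06 in ATF7+/- pLPD. All ATF7+/- pCD samples were below all wild-type pCD samples, while the pLPD groups overlapped. The level in ATF7+/- was 60.3% of that in wild-type (log2 difference, with both diets averaged, −0.73 ± 0.09, SE, limma adjusted p = 5.18e-06). The first probe set gave 86.9% (−0.20 ± 0.06, adjusted p = 0.238). Which part of the gene is altered in ATF7+/- is not given in the sources used here, so that neither probe set can be placed inside or outside it. The difference of diet differences for Atf7 did not pass on either probe set (−0.12 ± 0.12, adjusted p = 0.876, and −0.29 ± 0.18, adjusted p = 0.696).

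Of 13542 genes tested, 86 (0.635%) had a different diet difference in wild-type and ATF7+/- livers at a limma adjusted p under 0.05. The difference was positive for 77 of them (0.569% of the genes tested) and negative for 9 (0.0665%). Without adjustment 1253 genes (9.25%) had a p under 0.05. The largest positive log2 differences were those of Fabp5, a fatty acid-binding protein (2.97 ± 0.44, SE), Chrna4, a nicotinic receptor subunit (2.97 ± 0.69), and Sqle, squalene epoxidase of cholesterol synthesis (2.68 ± 0.36). The largest negative difference past the threshold was that of Sugct, an enzyme of glutarate metabolism, with −0.82 ± 0.18. The median size of the 86 differences was 0.82 and their range 0.31 to 2.97, against a median size of 0.11 over all genes tested.

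For the 77 positive genes the diet difference had a median of 0.83 in wild-type and −0.16 in ATF7+/-. For the 9 negative genes the medians were −0.33 in wild-type and 0.15 in ATF7+/-. Over all 86 genes the diet difference within ATF7+/- stayed between −0.53 and 0.34. Of the 13542 genes tested, 487 (3.6%) differed by limma between the paternal diet groups in wild-type. In ATF7+/- 0 did, where 178 (1.31%) had an unadjusted p under 0.05. Read the other way, ATF7+/- and wild-type differed in 224 genes (1.65%) when the fathers ate the control diet and in 0 when they ate the low-protein diet, where 377 (2.78%) had an unadjusted p under 0.05. These 4 contrasts share samples with each other and with the difference tested, so they are given side by side only. Without wild-type pCD replicate 2 the count of 86 became 167. It became 52 without wild-type pCD replicate 8, 49 without wild-type pLPD replicate 8 and 49 without ATF7+/- pLPD replicate 8. A fit to the set A arrays alone passed 280 genes, and one to the set B arrays alone 181.

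**Figure D1:**
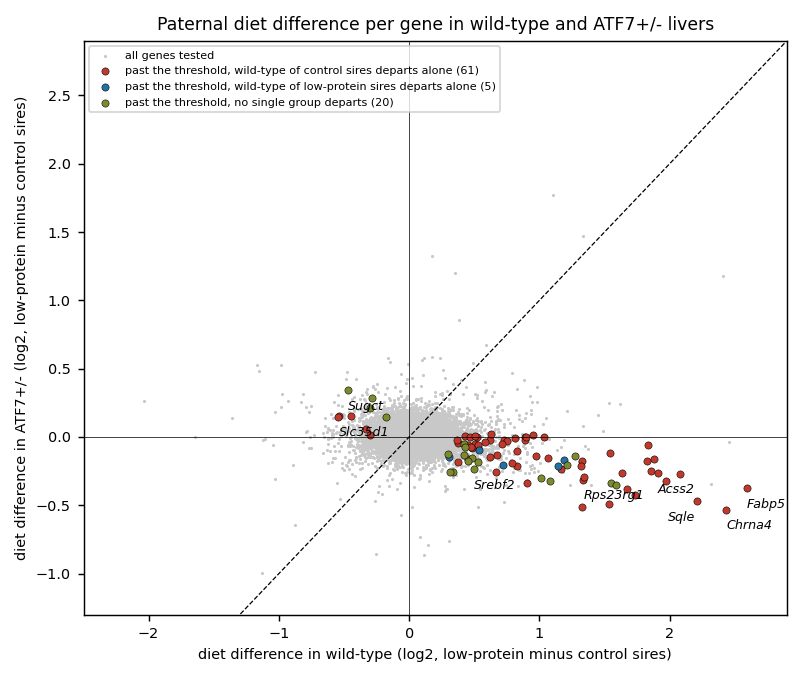
Each point is a gene, placed by its diet difference (log2, low-protein minus control fathers) in wild-type on the x axis and in ATF7+/- on the y axis; grey points are all genes tested, coloured points the 86 past the threshold, coloured by the group whose mean departs, and the dashed line marks equal differences. The coloured points spread along the x axis to beyond 2 while all lie between −0.53 and 0.34 on the y axis; 1 gene, Hamp, lies outside the axes.

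For each of the 86 genes the 4 group means were sorted, and a group was said to depart alone when its gap to the nearest other mean was larger than the range of the other 3 means. Wild-type pCD departed alone for 61 genes (70.9%), 56 with the lower mean and 5 with the higher, against 18.2% and 17.2% of all genes tested. Wild-type pLPD departed alone for 5 genes, all with the higher mean, against 6.39% of all genes tested. Neither ATF7+/- pCD nor ATF7+/- pLPD departed alone for any of the 86 genes, and for 20 genes (23.3%) no single group did. Over all genes tested the shares were 35.4% for wild-type pCD, 10.5% for wild-type pLPD, 7.29% for ATF7+/- pCD, 7.37% for ATF7+/- pLPD and 39.5% for none. For most of the 86 genes the wild-type control-diet group thus stood away from 3 groups with closer means. By the group means of each array set, wild-type pCD departed alone for 57 (set A), 45 (set B) and 41 (both) of the 61 genes. The 61 were picked over these same arrays, so high counts were largely fixed by the choice. Among all genes tested the shares were 31.2% (set A) and 33.3% (set B). Without wild-type pCD replicate 2 the number of genes past the threshold for which wild-type pCD departed alone was 108.

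The 7 wild-type pCD samples took part unequally. Over the 61 genes, wild-type pCD replicate 8 lay beyond all 24 samples of the other 3 groups for 56, replicates 2 and 7 for 51 and 50, replicate 6 for 49, replicate 3 for 48 and replicate 1 for 43. The averaged sample of replicates 4 and 5 lay beyond all 24 for 31 genes, and it was beyond their median for 60. For 10 genes all 7 wild-type pCD samples were below all 24 others (0.0738% of the genes tested), and all 10 were among the 86: Rps23rg1, Acss2, Ces2g, Pdzk1ip1, Aqp8, Gcat, Cnp, Mgam, Klhl13 and Mr1. For 0 genes were all 7 above the 24. The spread within wild-type pCD was also wider than in the other 3 groups, with a median SD over all genes tested of 0.21 against 0.17 in wild-type pLPD, 0.18 in ATF7+/- pCD and 0.17 in ATF7+/- pLPD.

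**Figure D2:**
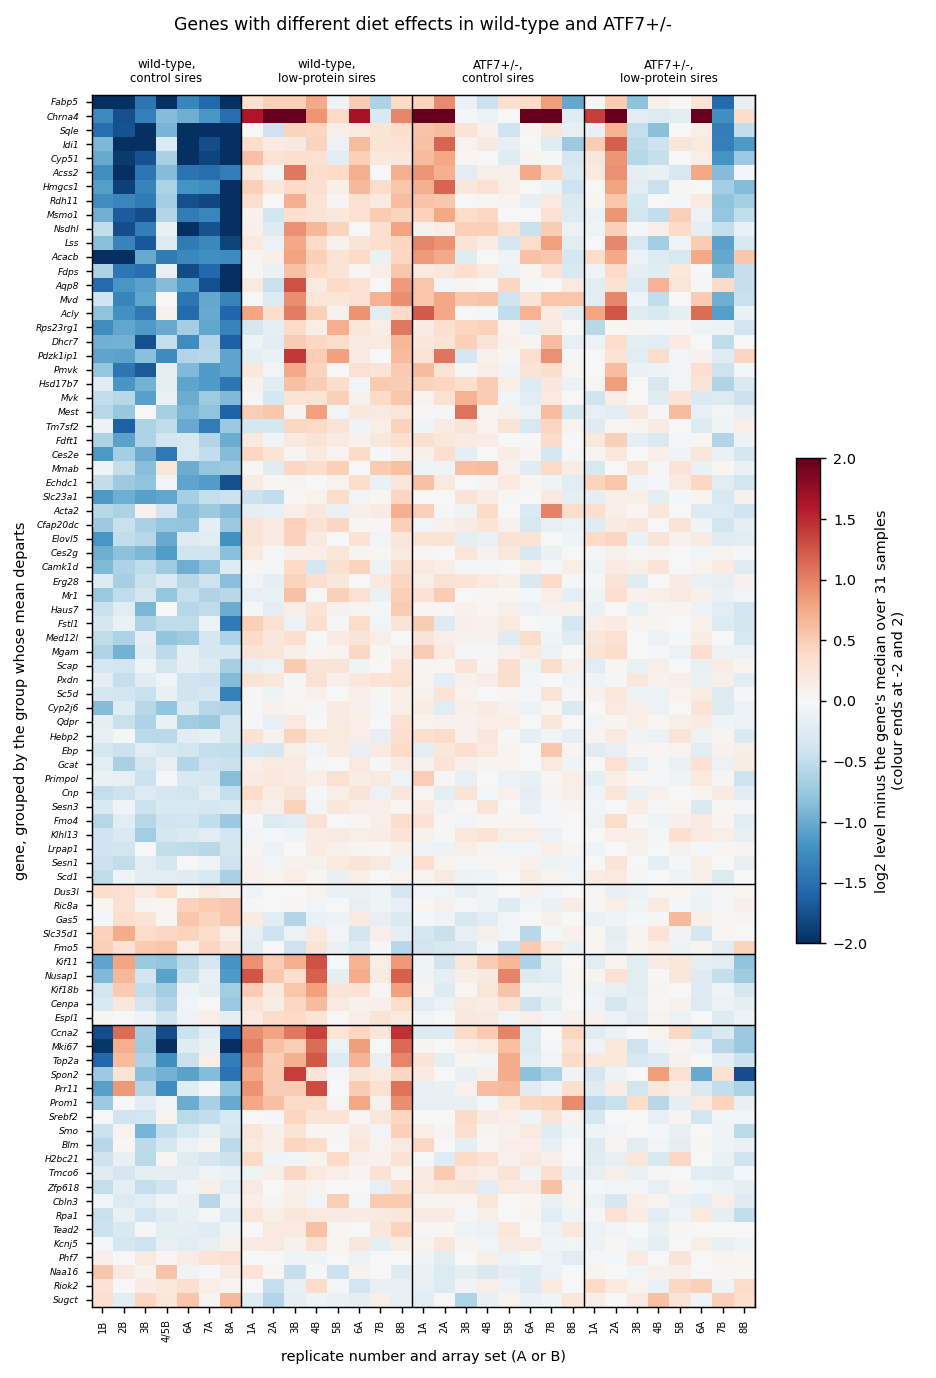
Rows are the 86 genes past the threshold, columns the 31 samples by group with replicate number and array set, and colour is the log2 level minus the gene's median over the 31 samples. The upper block of 56 genes is blue in nearly all cells of the 7 wild-type pCD columns, most weakly in column 4/5, and paler in the other 3 groups, except Chrna4, which is dark red in several set A columns.

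Cholesterol synthesis made up the most complete group. The list had 19 measured genes, of which 17 passed, all positive, with a median difference of 1.63 against 0.0023 over all genes tested. Wild-type pCD departed alone for 18 of the 19 and was the low group in the 17 that passed. The median diet difference of the list was 1.33 in wild-type and −0.27 in ATF7+/-. Within array set A the median of the list was 1.25, and within set B it was 1.71. In these whole-liver samples, fewer cells of a type and less RNA per cell cannot be told apart.

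The first steps of the pathway join acetyl-CoA units into mevalonate. Hmgcs1, the HMG-CoA synthase of the cytosol, had a low, median and high log2 level of 8.88, 9.67 and 10.29 in wild-type pCD. The same values were 11.02, 11.30 and 11.57 in wild-type pLPD, 10.51, 11.11 and 12.08 in ATF7+/- pCD, and 10.06, 10.80 and 11.72 in ATF7+/- pLPD. Wild-type pCD was thus low, and its highest sample reached above the lowest of ATF7+/- pLPD only. The difference was 2.16 ± 0.31 (SE, adjusted p = 3.9e-05), from a wild-type diet difference of 1.73 ± 0.22 and an ATF7+/- diet difference of −0.43 ± 0.22. The arrays of set A gave 2.31 and those of set B 2.05.

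The kinases and the decarboxylase that turn mevalonate into isoprenoid units all passed, each with wild-type pCD as the low group. Mvk, mevalonate kinase, had a difference of 1.25 ± 0.21, Pmvk, phosphomevalonate kinase, 1.5 ± 0.23, and Mvd, the decarboxylase, 1.84 ± 0.33. The mean of Pmvk was 7.35 ± 0.48 (SD, n = 7) in wild-type pCD, 8.68 ± 0.27 (n = 8) in wild-type pLPD, 8.57 ± 0.23 in ATF7+/- pCD and 8.39 ± 0.31 in ATF7+/- pLPD. Idi1, the isomerase that interconverts the isoprenoid units, ranged from 7.40 to 9.88 in wild-type pCD, from 10.05 to 10.80 in wild-type pLPD, from 9.44 to 11.33 in ATF7+/- pCD and from 8.80 to 11.35 in ATF7+/- pLPD. The difference of Idi1 was 2.35 ± 0.44, and its second probe set gave 2.38 ± 0.43. Fdps, which joins the units into farnesyl diphosphate, had 1.90 ± 0.30. Mmab, an enzyme of vitamin B12 metabolism whose gene lies next to Mvk on chromosome 5, was just inside the threshold with 0.98 ± 0.25 (adjusted p = 0.0495).

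From farnesyl diphosphate to lanosterol the pathway runs through squalene. Fdft1, squalene synthase, had a difference of 1.04 ± 0.17, and 1.35 ± 0.25 on its second probe set. Sqle, the next enzyme, had a low, median and high of 6.88, 7.25 and 8.64 in wild-type pCD, 9.16, 9.80 and 10.03 in wild-type pLPD, 9.18, 9.73 and 10.19 in ATF7+/- pCD, and 8.19, 9.27 and 10.28 in ATF7+/- pLPD. No wild-type pCD sample reached the lowest sample of wild-type pLPD or of ATF7+/- pCD, and only ATF7+/- pLPD overlapped with it. The wild-type diet difference of Sqle was 2.21 ± 0.26 and that of ATF7+/- was −0.47 ± 0.25, a difference of 2.68 ± 0.36 (6.41-fold, adjusted p = 1.59e-05). Lss, lanosterol synthase, was at 8.26 ± 0.53 (SD) in wild-type pCD, 9.79 ± 0.26 in wild-type pLPD, 9.87 ± 0.50 in ATF7+/- pCD and 9.38 ± 0.64 in ATF7+/- pLPD, with a difference of 2.02 ± 0.33.

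The enzymes that trim lanosterol to cholesterol all passed where measured. Cyp51, the lanosterol demethylase, had a difference of 2.30 ± 0.38, Msmo1, a methylsterol oxidase, 2.05 ± 0.31, and Nsdhl, a sterol dehydrogenase, 2.04 ± 0.34. Msmo1 had a low, median and high of 7.93, 8.96 and 9.77 in wild-type pCD, 9.99, 10.65 and 10.86 in wild-type pLPD, 10.10, 10.70 and 11.14 in ATF7+/- pCD, and 9.58, 10.12 and 11.24 in ATF7+/- pLPD. Its wild-type pCD samples lay below all samples of wild-type pLPD and ATF7+/- pCD. Dhcr7, which catalyses a last reduction, had 1.63 ± 0.23 (adjusted p = 2.38e-05), with wild-type pCD at 8.66 ± 0.49 (SD) and the other 3 group means between 9.69 and 10.01. Hsd17b7 (1.40 ± 0.27), Tm7sf2 (1.11 ± 0.28), Sc5d (0.61 ± 0.14) and Ebp (0.56 ± 0.13) gave smaller differences. Of the 2 measured members that did not pass, Stard4, a sterol carrier, was at 0.64 ± 0.19 (adjusted p = 0.127) and Ggps1, which makes the geranylgeranyl chain outside the sterol branch, at −0.12 ± 0.09 (adjusted p = 0.812).

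**Figure D3:**
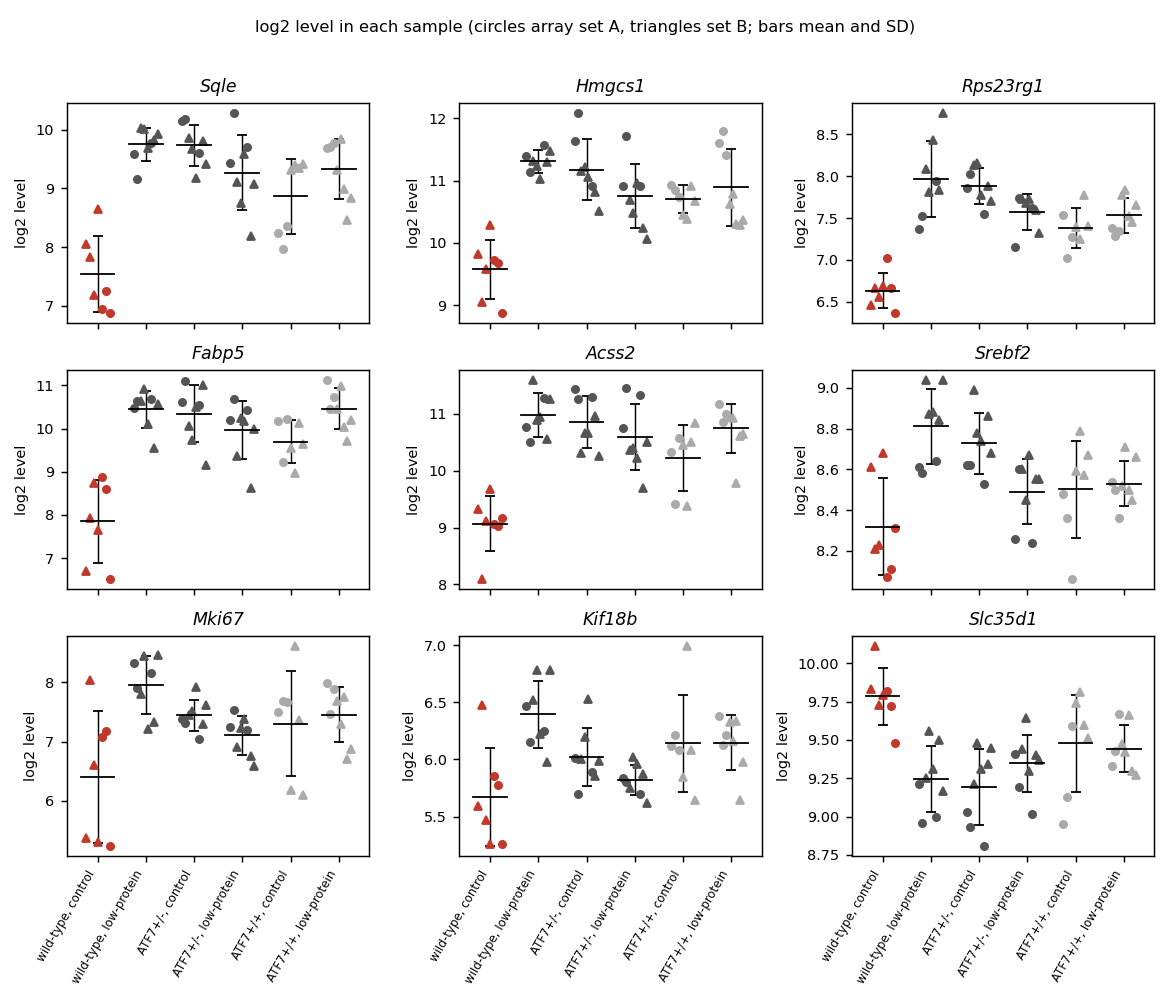
Each panel gives the log2 level of 1 gene in every sample of the 6 groups (x axis), circles for array set A and triangles for set B, with the mean and SD. In Sqle, Hmgcs1, Rps23rg1, Fabp5 and Acss2 the red wild-type pCD points lie below nearly all others, in Slc35d1 above most, while in Mki67 and Kif18b they spread over most of the range, with 1 high sample, replicate 2.

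The promoters of 3 of these genes are shown because they are the cholesterol genes with the smallest p among those with exactly 1 entry in the RefSeq promoter table (build GRCm38.p6). Each runs 5′ to 3′ on the strand of the gene from 250 bases before to 50 after the start, and capitals mark the sterol regulatory element core TCACNCCAC and the CCAAT box (CCAAT, or ATTGG where it is on the other strand). Msmo1 lies at chr8:64733529-64733828 on the minus strand, Lss at chr10:76531355-76531654 on the plus strand and Hmgcs1 at chr13:119690101-119690400 on the plus strand.
Msmo1: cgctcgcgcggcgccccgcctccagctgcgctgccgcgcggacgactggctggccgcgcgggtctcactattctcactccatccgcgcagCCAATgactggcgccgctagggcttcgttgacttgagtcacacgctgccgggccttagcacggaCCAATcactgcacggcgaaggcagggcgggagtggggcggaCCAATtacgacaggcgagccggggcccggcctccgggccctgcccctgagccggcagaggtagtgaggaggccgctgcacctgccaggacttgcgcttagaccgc
Lss: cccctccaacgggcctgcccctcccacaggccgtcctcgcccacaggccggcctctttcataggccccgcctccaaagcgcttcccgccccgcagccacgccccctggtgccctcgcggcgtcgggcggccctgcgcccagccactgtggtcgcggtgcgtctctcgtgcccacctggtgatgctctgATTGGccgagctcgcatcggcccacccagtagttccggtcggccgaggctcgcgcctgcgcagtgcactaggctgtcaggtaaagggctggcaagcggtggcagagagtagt
Hmgcs1: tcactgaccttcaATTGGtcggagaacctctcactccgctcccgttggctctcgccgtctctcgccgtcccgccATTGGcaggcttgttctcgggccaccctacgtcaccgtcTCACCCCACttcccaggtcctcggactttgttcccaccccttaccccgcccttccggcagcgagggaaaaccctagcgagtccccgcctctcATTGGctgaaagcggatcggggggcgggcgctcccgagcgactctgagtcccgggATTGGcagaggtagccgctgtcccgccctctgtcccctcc
The Msmo1 window held 3 CCAAT boxes, the Lss window 1, and the Hmgcs1 window 4 with 1 sterol element core.

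Counted by gene, CCAAT was found in 14 of 14 cholesterol-list genes past the threshold that had a promoter entry (100%), in 54.8% of the other 62 matched genes past the threshold and in 41.4% of the 10761 genes tested that had an entry. Of the 86 genes past the threshold 76 had an entry, and TCACNCCAC was in 4 of them (5.26%, Camk1d, Echdc1, Sesn1 and Hmgcs1) against 1.51% of the genes tested. The palindromic CRE site TGACGTCA, a site type that ATF proteins bind, was in 2 (Gas5 and Elovl5, 2.63%) against 3.27% of the genes tested. Both strands were searched, and none of the 3 motifs contains another, though neighbouring matches may share bases. A match describes letters in a window and not binding.

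The list of SREBP factors and their regulators held fewer genes past the threshold. Of 10 measured members 2 passed, Srebf2 and Scap, and the median of the list was 0.18. Srebf2, which encodes SREBP2, had a low, median and high of 8.07, 8.23 and 8.68 in wild-type pCD, 8.58, 8.86 and 9.04 in wild-type pLPD, 8.53, 8.71 and 8.99 in ATF7+/- pCD, and 8.24, 8.55 and 8.67 in ATF7+/- pLPD. Here all 4 groups overlapped with at least 1 neighbour and no single group departed: wild-type pCD was lowest, and ATF7+/- pLPD lay between it and the other 2. The difference was 0.73 ± 0.13 (adjusted p = 0.00105), from 0.50 ± 0.09 in wild-type and −0.24 ± 0.09 in ATF7+/-. Scap gave 0.62 ± 0.15 (adjusted p = 0.0356), with wild-type pCD departing alone at 9.65 ± 0.18 (SD). Insig1, which holds SCAP back when sterols are high, was at 1.08 ± 0.31 and did not pass (adjusted p = 0.102). Insig2 was at 0.53 ± 0.28, with 1.38 from the set A arrays and 0.01 from the set B arrays. Srebf1, the factor of the fatty acid branch, was at −0.27 ± 0.29 (adjusted p = 0.901).

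Among genes of fatty acid synthesis, 5 of 19 measured passed, all positive, and the median of the list was 0.90, with wild-type pCD departing alone for 17 of the 19. The list gave a larger median in array set A (1.15) than in set B (0.66), and its median diet difference was 0.96 in wild-type and −0.02 in ATF7+/-. Acss2 had a low, median and high of 8.09, 9.11 and 9.68 in wild-type pCD, 10.50, 10.93 and 11.60 in wild-type pLPD, 10.26, 10.81 and 11.43 in ATF7+/- pCD, and 9.69, 10.46 and 11.46 in ATF7+/- pLPD. All wild-type pCD samples were below all others, though the nearest pair of samples almost touched. Acacb, the acetyl-CoA carboxylase of the mitochondrial surface, had a difference of 2.0 ± 0.37 (adjusted p = 0.00146). Acly, which makes acetyl-CoA from citrate, had 1.67 ± 0.42 (adjusted p = 0.0434). Elovl5, an elongase of polyunsaturated fatty acids, had 0.90 ± 0.19. Scd1, the main desaturase, had 0.39 ± 0.09 (adjusted p = 0.0324) at a log2 level near 13 in every group, and its call was lost in 13 of 47 other settings.

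The other enzymes of fatty acid synthesis had positive values that did not pass. Fasn, fatty acid synthase, ranged from 9.60 to 12.53 in wild-type pCD, from 11.58 to 12.54 in wild-type pLPD, from 11.10 to 12.60 in ATF7+/- pCD and from 10.90 to 12.84 in ATF7+/- pLPD. Its difference was 1.42 ± 0.43 (adjusted p = 0.131), 2.22 from the set A arrays and 0.82 from the set B arrays. Acaca was at 0.88 ± 0.37 (adjusted p = 0.383), Elovl6 at 1.29 ± 0.39 (adjusted p = 0.129) and Fads1 at 0.57 ± 0.15 (adjusted p = 0.0513). The count of 5 became 3 when only the 4 groups entered the fit. It was also 3 without any 1 of 10 samples: wild-type pCD replicates 1 and 8, wild-type pLPD replicates 3, 6 and 8, ATF7+/- pCD replicates 1 and 2, and ATF7+/- pLPD replicates 5, 7 and 8.

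**Figure D4:**
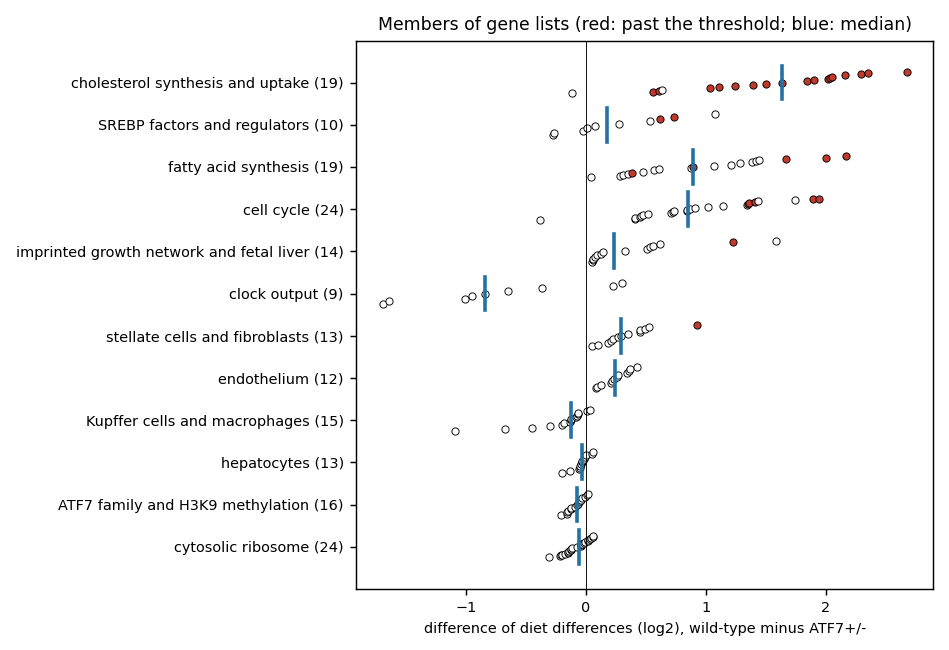
Each circle is a measured member of a gene list (number of members in brackets), placed by the difference of diet differences on the x axis (log2, wild-type minus ATF7+/-), red where it passed the threshold, with the list's median as a blue bar. The medians stand at 1.63 for cholesterol synthesis, 0.90 for fatty acid synthesis and 0.86 for the cell cycle, while those of hepatocyte markers, ribosomal proteins and the ATF7 family lie near 0.

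Genes outside these lists formed the greater number, 54 of the 86 being in no list. Fabp5 had the largest difference of the genes past the threshold. Its low, median and high were 6.51, 7.92 and 8.87 in wild-type pCD, 9.56, 10.61 and 10.92 in wild-type pLPD, 9.15, 10.53 and 11.11 in ATF7+/- pCD, and 8.62, 10.19 and 10.68 in ATF7+/- pLPD. Wild-type pCD lay below all samples of wild-type pLPD and ATF7+/- pCD. The second Fabp5 probe set gave 3.01 ± 0.44, against 2.97 ± 0.44 on the first. Rdh11, a retinol dehydrogenase, had a difference of 2.11 ± 0.28 (adjusted p = 1.37e-05), with wild-type pCD at 7.86 ± 0.60 (SD) and the other 3 means between 9.27 and 9.71.

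Rps23rg1, a retrogene copy of the ribosomal protein gene Rps23, had the smallest p of all genes tested (difference 1.65 ± 0.19, adjusted p = 7.88e-07). Its highest wild-type pCD sample was at 7.02 and its lowest sample of the other 3 groups at 7.15, with group means of 6.63, 7.97, 7.88 and 7.57 in the order wild-type pCD, wild-type pLPD, ATF7+/- pCD and ATF7+/- pLPD. Cross-hybridisation with Rps23 RNA cannot be told apart on this array. The measured ribosomal protein genes as a list had 0 of 24 past the threshold and a median of −0.06. The carboxylesterase paralogs Ces2e (1.03 ± 0.18) and Ces2g (0.89 ± 0.15), which are separated by 1 gene on chromosome 8 and may share probes, had wild-type pCD means of 9.87 and 8.82 against 10.73 to 10.91 and 9.61 to 9.71 in the other groups. Aqp8, a water channel, had 1.89 ± 0.36, and Erg28, a scaffold protein of sterol synthesis, 0.81 ± 0.15. Pdzk1ip1, a small membrane protein, had 1.53 ± 0.27. Ces2e, Ces2g, Aqp8, Erg28 and Pdzk1ip1 were picked for description after their values were seen.

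Chrna4, a nicotinic acetylcholine receptor subunit, had the second largest difference, 2.97 ± 0.69 (adjusted p = 0.0257), with levels that differed between the array sets. Its mean in wild-type pCD was 6.51 over the set A arrays and 6.42 over the set B arrays. The same pair of means was 9.49 and 8.53 for wild-type pLPD, 10.07 and 8.05 for ATF7+/- pCD, and 9.71 and 7.41 for ATF7+/- pLPD. Set A had the higher mean in these 3 groups, although a set B sample, replicate 3 at 9.79, was the highest of wild-type pLPD, and both sets were low in wild-type pCD. The difference was 3.34 (set A) and 2.75 (set B). Without ATF7+/- pCD replicate 1 the adjusted p was 0.0518.

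The pattern of cell division genes was different. Of 24 measured cell cycle genes 5 passed (Mki67, Ccna2, Top2a, Nusap1 and Kif11), 23 had positive values, and the median was 0.86, but wild-type pCD departed alone for 2 of the 24. Wild-type pLPD departed alone with the higher mean for Kif18b, Espl1, Nusap1, Kif11 and Cenpa, 5.81% of the 86 genes against 6.39% of all genes tested. Of these 5, Nusap1 and Kif11 belong to the cell cycle list. The number of genes with wild-type pLPD apart moved in 3 of 4 other settings. By set means it was 7 of the 86 in set A (8.14%, against 11.9% of all genes tested). In set B it was 2 (2.33%, against 10.7%). Wild-type pCD replicate 2 raised the mean of its group, as for Kif11, at 7.02 against 5.05 to 5.90 in the others. Kif18b, a kinesin of the mitotic spindle, had a low, median and high of 5.26, 5.59 and 6.48 in wild-type pCD, 5.98, 6.36 and 6.78 in wild-type pLPD, 5.70, 6.0 and 6.53 in ATF7+/- pCD, and 5.62, 5.82 and 6.02 in ATF7+/- pLPD. All 4 groups overlapped, and the difference was 0.92 ± 0.21 (adjusted p = 0.0241). Mki67, a proliferation marker, ranged from 5.24 to 8.04 in wild-type pCD, from 7.21 to 8.46 in wild-type pLPD, from 7.05 to 7.92 in ATF7+/- pCD and from 6.58 to 7.53 in ATF7+/- pLPD. The wild-type pCD samples were therefore the most spread, with an SD of 1.11 against 0.48, 0.26 and 0.32.

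Ccna2, cyclin A2, had a difference of 1.94 ± 0.46, Top2a, topoisomerase II, 1.41 ± 0.35, Nusap1, a spindle protein, 1.35 ± 0.34, and Kif11, a spindle motor, 1.36 ± 0.34, with adjusted p from 0.0266 to 0.0445. Espl1, separase, had 0.45 ± 0.11, and Cenpa, the histone variant of centromeres, 0.63 ± 0.16. Over the other settings and samples left out, the call was lost in 27 of 47 for Cenpa, 24 of 46 for Kif11, 22 of 46 for Top2a, 19 of 46 for Nusap1, 10 of 46 for Espl1, 7 of 47 for Mki67, 7 of 47 for Ccna2 and 3 of 46 for Kif18b. The count of 5 in the cell cycle list moved with single samples. It was 13 without wild-type pCD replicate 2, and 0 without wild-type pCD replicate 1, 4/5 or 8, wild-type pLPD replicate 8 or ATF7+/- pLPD replicate 8. It was 1 without ATF7+/- pCD replicate 5. It was 2 or 3 without wild-type pCD replicate 6, wild-type pLPD replicates 1, 3, 4 or 6, ATF7+/- pCD replicates 1, 3, 4 or 8, or ATF7+/- pLPD replicates 3, 6 or 7. Within array set A 5 members passed, and within set B 0 did.

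The 20 genes for which no single group departed include Srebf2, Mki67, Ccna2 and Top2a. Of the others, Blm, a DNA helicase of replication and repair, had a difference of 0.63 ± 0.14, and Smo, the signal transducer of the hedgehog pathway, 0.71 ± 0.16. Tmco6 had 0.59 ± 0.12, with 0.44 (set A) and 0.69 (set B). Smo had group means of 7.53 in wild-type pCD, 8.06 in wild-type pLPD, 7.96 in ATF7+/- pCD and 7.79 in ATF7+/- pLPD. For Smo the value combined a wild-type diet difference of 0.53 ± 0.11 with an ATF7+/- diet difference of −0.18 ± 0.11. The latter did not pass by itself.

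The 9 genes with a negative difference were small in effect, between −0.82 and −0.31. Wild-type pCD departed alone with the higher mean for 5 of them, Slc35d1, Gas5, Ric8a, Dus3l and Fmo5, and no single group departed for Sugct, Naa16, Riok2 and Phf7. Slc35d1, a transporter of nucleotide sugars, had a low, median and high of 9.48, 9.79 and 10.11 in wild-type pCD, 8.96, 9.23 and 9.56 in wild-type pLPD, 8.81, 9.26 and 9.48 in ATF7+/- pCD, and 9.02, 9.38 and 9.64 in ATF7+/- pLPD. Wild-type pCD was high, with its lowest sample inside the range of the other groups. Its difference was −0.69 ± 0.16 (adjusted p = 0.0223). Fmo5, a flavin monooxygenase, had −0.69 ± 0.18 and was the gene nearest to the threshold from inside (adjusted p = 0.0496).

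Sugct crossed over between the diets in its group means. It was at 7.66 ± 0.30 (SD) in wild-type pCD, 7.19 ± 0.20 in wild-type pLPD, 7.26 ± 0.24 in ATF7+/- pCD and 7.60 ± 0.23 in ATF7+/- pLPD. The wild-type diet difference was −0.47 ± 0.13 and that of ATF7+/- 0.34 ± 0.13, which did not pass by itself. Riok2, a kinase of ribosome assembly, also had wild-type pLPD and ATF7+/- pCD as its lower groups (difference −0.57 ± 0.13), with −1.04 (set A) and −0.29 (set B). Naa16, a subunit of an acetyltransferase, had −0.52 ± 0.12, with −0.13 (set A) and −0.78 (set B). Gas5, a noncoding RNA that hosts small nucleolar RNAs, had −0.60 ± 0.14 on the probe set used, −0.40 ± 0.17 on the second and −0.07 ± 0.25 on the third. Ric8a, which aids the folding of G proteins, was at −0.40 ± 0.10, Dus3l, a tRNA dihydrouridine synthase, at −0.31 ± 0.08, and Phf7 at −0.32 ± 0.08. Over the other settings and samples left out, the call was lost in 31 of 46 for Phf7, 28 of 47 for Fmo5, 18 of 47 for Dus3l, 14 of 47 for Ric8a, 7 of 47 for Riok2, 6 of 47 for Gas5, 6 of 46 for Naa16, and 1 of 47 each for Sugct and Slc35d1.

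Just inside the threshold stood Fmo5, Mmab and Fstl1 (a secreted glycoprotein, 0.76 ± 0.19), and over the other settings Mmab lost its call in 25 of 47 and Fstl1 in 28 of 47. Just outside stood Slc16a1, a lactate transporter (0.77 ± 0.20), Igf2bp3, an RNA-binding protein of fetal tissue (0.51 ± 0.13), and Rexo4 (−0.32 ± 0.08). The largest value of all genes tested in either direction did not pass. Hamp, which encodes the iron hormone hepcidin, had −4.92 ± 1.52 (adjusted p = 0.134). Its log2 level ran from 10.94 to 12.81 in wild-type pCD, from 4.18 to 11.84 in wild-type pLPD, from 6.03 to 12.52 in ATF7+/- pCD and from 10.41 to 11.94 in ATF7+/- pLPD. Hamp was picked for description after its values were seen.

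The remaining lists held few or no genes past the threshold. The list of imprinted growth genes and fetal liver genes had 1 of 14, Mest (1.23 ± 0.28, adjusted p = 0.0214), with a median of 0.23, and all 14 values were positive. The list of gluconeogenesis and insulin targets had 1 of 12, Sesn1 (0.42 ± 0.10). The output genes of the circadian clock had 0 of 9 and a median of −0.84, with −1.84 (set A) and −0.15 (set B). None of the 16 measured genes of the ATF7 family and of histone H3 lysine K9 methylation passed: Mapk14, a kinase known to phosphorylate ATF7, was at −0.21 ± 0.08 (adjusted p = 0.339), Crebbp, a coactivator, at −0.12 ± 0.07 and Ehmt1, a methyltransferase of that lysine, at −0.15 ± 0.11.

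Markers of other cell types of the liver were measured beside these groups. Of 13 stellate cell and fibroblast markers 1 passed, Acta2 (0.93 ± 0.23, adjusted p = 0.0396), all 13 values were positive and their median was 0.30. The log2 of the summed levels of these markers, again weighted to the brightest, ranged from 12.3 to 12.9 in wild-type pCD. It ranged from 12.8 to 13.0 in wild-type pLPD, 12.6 to 13.0 in ATF7+/- pCD and 12.8 to 13.0 in ATF7+/- pLPD. The 12 endothelial markers had 0 past the threshold and a median of 0.24, the 15 Kupffer cell and macrophage markers 0 and −0.12, and the 13 hepatocyte markers 0 and −0.04. The low summed stellate level in some wild-type pCD samples lay beside low levels of cholesterol and fatty acid genes in that group. Its part in the result was not tested.

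**Figure D5:**
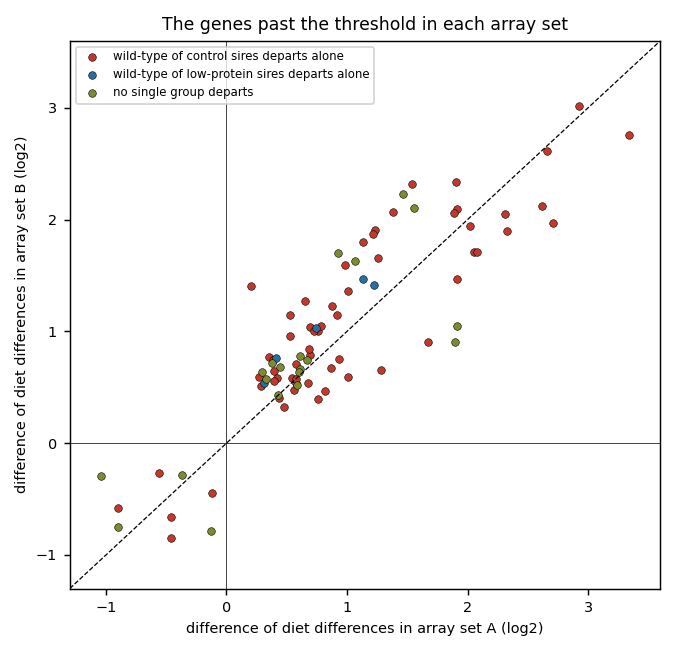
Each point is 1 of the 86 genes, placed by its difference of diet differences (log2) within array set A (x axis) and set B (y axis), coloured by the group whose mean departs; the dashed line marks equal values. The choice of genes used all arrays; the positive genes had a median of 0.79 (set A) and 1.0 (set B).

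Within each array set the difference could be fitted on its own. Of the 86 genes 39 passed when only set A was fitted, 55 when only set B was, and 26 each time, of which 12 were cholesterol genes. The 86 were picked over these same arrays, so high counts were largely fixed by the choice and are not a replication. The numbers of all genes tested that passed in each set are given above, and their overlap is not given here. The 77 positive genes had a median of 0.79 (set A) and 1.0 (set B), and the 9 negative genes one of −0.46 and −0.58. With the set as a block all 86 genes passed, among 299 in all.

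The ATF7+/+ groups, which the difference did not use, showed where a further set of animals lay. For the 61 genes in which wild-type pCD departed alone, ATF7+/+ pCD lay at a median of 35.7% of the way from the mean of the other 3 groups to wild-type pCD. For 16 genes it lay between them but nearer to wild-type pCD, for 44 between but nearer to the other 3 groups, and for 1 on the far side of those groups. The 61 genes were picked because wild-type pCD stood apart from these 3 groups. A position nearer to the 3 is thus partly set by the choice, and the position over all genes tested is not given here. ATF7+/+ pLPD lay at a median of 10.5% of the way. For the 17 cholesterol genes the position of ATF7+/+ pCD had a median of 27.2%, with a range of 6.86% to 64.4%, and for the other 44 genes a median of 37.3%. Sqle, for example, was at 7.54 ± 0.65 (SD) in wild-type pCD, 8.86 ± 0.64 in ATF7+/+ pCD and 9.32 ± 0.51 in ATF7+/+ pLPD. Its ATF7+/+ pCD samples split by array set, from 7.96 to 8.36 in set A and from 9.32 to 9.415 in set B. Averaged over the cholesterol list as centred log2 levels, ATF7+/+ pCD was at −0.35 (set A) and 0.07 (set B). ATF7+/+ pLPD was at 0.33 and −0.05, and wild-type pCD at −1.16 and −0.69. The positions above pool both sets.

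Tested as a difference of diet differences between wild-type and ATF7+/+, 3 genes passed (0.0222%, with 7.06% at an unadjusted p under 0.05): Rps23rg1 (1.18 ± 0.20, adjusted p = 0.0037), Msmo1 (1.63 ± 0.32, adjusted p = 0.0426) and Rdh11 (1.43 ± 0.28, adjusted p = 0.0426). Between ATF7+/- and ATF7+/+ 0 genes passed by limma, and 380 (2.81%) had an unadjusted p under 0.05. The comparisons share the wild-type or the ATF7+/- samples with the difference above. The count of 3 was 1 without wild-type pCD replicates 2, 3, 6 or 8, wild-type pLPD replicates 1, 4, 6 or 7, ATF7+/- pCD replicates 3, 4, 5 or 7, or ATF7+/- pLPD replicates 1 or 3, the ATF7+/- samples entering only through the shared spread. It was 5 without wild-type pLPD replicate 8, 8 without wild-type pLPD replicate 2 or ATF7+/- pLPD replicate 7, 9 without ATF7+/- pLPD replicate 2, 11 without wild-type pCD replicate 1 and 15 without wild-type pCD replicates 4/5.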

How the data were processed

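RNA from 48 livers was measured on Affymetrix gene arrays. Values were deposited as log2 levels made by the authors with Affymetrix Expression Console and RMA, per the submitters' processing notes, whose versions are not given in the sources used here; they were used as deposited. Arrays have no read depth, so that precision is set by how many were run. Of 35556 probe sets, 21789 had 1 gene symbol. Probe sets whose mean lay below the 40th percentile of all probe sets (log2 5.46) were left out, and the brightest remaining one on average stood for its gene, which gave 13542 genes.

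Groups came from the sample titles. Near-identical arrays were averaged, leaving 46 samples. A linear model over all 6 groups was fitted with limma 3.58.1 in R 4.3.3, each contrast was tested with its moderated test, and p-values were adjusted over all 13542 genes by Benjamini-Hochberg (threshold 0.05). Every adjusted p in the text comes from limma, and ± after a difference is its standard error. Methods were tested on simulated data.

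Array sets were taken from the first principal component of 5591 probe sets without a listed gene. Genes named are the 12 largest differences in each direction past the threshold, the 5 with the smallest p for each departing group, the 4 with the smallest p in each list with at least 3 members past it, Atf7 with its family's smallest p, and the 3 genes on each side of the threshold. Others are named from the fixed lists or as chosen after their values were seen. The members and lists were chosen with earlier results of these data known.

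Replicate numbers recur in the labels. In ATF7+/- same-numbered samples deviated together (8 pairs, r from 0.18 to 0.74), and each pair belonged to 1 array set; after removing the mean of each set r was −0.04 to 0.38. In wild-type the numbers did not pair (7 pairs, r from −0.47 to 0.50). Alternatives covered the filter, normalization, probe sets, variance prior, array weights, samples, blocks and leaving out each sample. Added after seeing the data were the group means of each array set and the motif TGACGTCA.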

Additional observations from a re-analysis of the deposited data

Results flagged for a closer look

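The diet difference differed between wild-type and ATF7+/- for 86 genes, by the test of the difference itself.

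Among 164 groups examined for a single sample far from the rest, 9 had one; chance gives about 1 in 20. In wild-type pLPD, Cyp51 was at 9.53 in replicate 5, against 9.96 to 10.33 in the others. Msmo1 was at 9.99 in wild-type pLPD replicate 2, against 10.45 to 10.86. Acss2 was at 8.09 in wild-type pCD replicate 2, against 9.03 to 9.68, and Kif11 was at 7.02 in the same sample, against 5.05 to 5.90. Fstl1 was at 5.95 in wild-type pCD replicate 8, against 6.73 to 7.25. In ATF7+/- pLPD replicate 8, Kif11 was at 5.42, against 6.0 to 6.46, and Smo at 7.38, against 7.75 to 7.91. Gas5 was at 9.39 in ATF7+/- pLPD replicate 5, against 8.6 to 8.84, and Nusap1 at 6.96 in ATF7+/- pCD replicate 5, against 5.70 to 6.15.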

How the results depend on the processing

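The count of 86 genes was 178 with array weights, 299 with the array set as a block, 417 with that block and the level of Y-linked genes, 280 with only set A fitted and 181 with only set B, and 49 to 167 when each sample was left out in turn. The 61 genes with wild-type pCD apart became 119, 204, 271, 165 and 139 under the same settings, and 41 to 108 with a sample left out. The cholesterol count of 17 was 16 to 17 with a sample left out and 12 in set A alone. The fatty acid count of 5 was 3 with only the 4 groups fitted, 10 with the set block and Y-linked level, 3 to 6 with a sample left out and 7 without wild-type pCD replicates 4/5. The cell cycle count of 5 was 2 without a filter, 2 with a filter at the 60th percentile, 3 with median centring, 11 with array weights, 8 with the Y-linked level, 8 with the set block, 13 with both and 0 in set B alone, and 0 to 13 with a sample left out. The count of 3 for wild-type against ATF7+/+ was 1 without a filter, 16 at the 60th percentile, 8 with quantile normalization, 12 with median centring, 33 with array weights, 18 with the Y-linked level, 51 with the set block, 61 with both, 417 in set A, 12 in set B, 14 with all 48 arrays and 1 to 15 with a sample left out. The first Atf7 probe set, at −0.20, gave −0.47 (adjusted p = 0.000141) as the mean of all probe sets. The causes were not tested. No result reversed under these settings.

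With the replicate number as a block over all labels 108 genes passed instead of 86, and with the number as a block within each label 119. The count for wild-type against ATF7+/+ was 8 with either replicate block. The block within each label absorbs the difference between labels, so that it gives no value for Atf7 in ATF7+/- against wild-type. Of the wild-type samples, 1 correlated best with its own number.

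The labels do not say what separates the array sets, wild-type from ATF7+/+ animals, or the sexes of single animals.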

Other observations

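Genes of the circadian clock were not past the threshold, yet their values were wide. Among all genes tested, 9.25% had an unadjusted p under 0.05. The 12 measured core clock genes had differences from −1.64 to 1.21, and 5 had an unadjusted p under 0.05. Their median of −0.20 depended on the arrays used, with −0.45 (set A) and −0.02 (set B). The 9 output genes of the clock ran from −1.69 to 0.30, and 4 had an unadjusted p under 0.05. The 28 measured genes of fatty acid oxidation and ketogenesis, by comparison, had 1 with an unadjusted p under 0.05 and a median of 0.0018, and the 17 genes for the urea cycle and for breaking down amino acids 1 and 0.0016. Of the 15 Kupffer cell and macrophage markers, 13 had a negative difference, the lowest at −1.09.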
